A study of Mus musculus with 8 samples.

Results

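The genes described here encode the proteins of the mitochondrial ribosome. They were chosen by name: each gene of the deposited count table whose symbol is Mrpl or Mrps followed by a digit was taken and pseudogene symbols were left out, which gave 78 of 54532 gene identifiers. By the letter in the symbol, 49 of them belong to the large subunit (Mrpl) and 29 to the small subunit (Mrps). They lie on 17 chromosomes, with none on X or Y.

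The study compared LSK cells of 2 groups of C57BL/6 mice by RNA-seq. LSK cells are bone marrow cells that lack lineage markers and carry Sca-1 and c-Kit, a gate rich in haematopoietic stem and progenitor cells. The 3 AML1/ETO libraries came from mice of genotype Runx1-Runx1t1, which carry a fusion of the transcription factor Runx1 with Runx1t1 that is known from acute myeloid leukaemia, and the 5 control libraries came from WT mice. Both groups had received poly(I:C), a synthetic double-stranded RNA, in 4 injections of 5 mg/kg on alternate days, and the gate was collected after a further 4 weeks. No source used here gives the promoter or Cre driver of the fusion, the age of the mice or whether each library is a separate mouse. The p-values therefore describe the spread over these 8 libraries, part of which may be technical.

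Library totals ran from 14693080 to 17527043 reads, and reads of the 78 genes made up 0.126% to 0.177% of the AML1/ETO libraries and 0.232% to 0.291% of the controls. Reads of Runx1t1 numbered 712 to 1971 per AML1/ETO library and 27 to 132 per control library. The sex markers also separated the groups: Xist had 28559 to 33151 reads in AML1/ETO and 0 to 111 in control libraries, and Ddx3y had 0 reads in AML1/ETO and 3688 to 5038 in control libraries, so genotype and sex cannot be told apart. Many low genes had no read at all: where 20 to 50 reads would be expected, 41.4% to 51.1% of genes per AML1/ETO library and 46.2% in control 1 were at 0, against 10.5% to 26.96% in the other 4 controls. Of 8 LSK markers, 6 were higher and 1 lower in AML1/ETO; Ly6a, which encodes Sca-1, was at only 8.26 to 23.4 CPM (read counts scaled to library size) in the controls against 220.6 to 920.8 in AML1/ETO.

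The mitochondrial ribosome translates the few proteins encoded by mitochondrial DNA, which are core subunits of the respiratory chain and of ATP synthase. All of its proteins are encoded in the nucleus, made on cytosolic ribosomes, imported and assembled on the mitochondrial rRNAs. Some have a bacterial counterpart, and others are found only in mitochondrial ribosomes. Blood stem cells are known for low mitochondrial activity that rises as progenitors begin to divide and differentiate.

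Most mitochondrial ribosomal protein mRNAs were at a lower level in AML1/ETO than in control LSK cells. Of the 77 members that passed the filter on low counts, 15 fell and 1 rose at an adjusted p under 0.05 (edgeR's quasi-likelihood test over 15009 genes, Benjamini-Hochberg adjustment); over all genes tested 14.2% fell and 11.6% rose. The share that fell, 19.5%, was near the background, and the share that rose, 1.30%, lay below it. The fitted log2 fold change was below 0 for 70 members (90.9%), against 53.8% of all genes. Its median was −0.63 over the members and −0.09 over all genes. In 22 members every AML1/ETO library was below every control library, against 17.5% of all genes, and in 0 members every AML1/ETO library was above every control, against 14.1%. In sorted bulk cells, fewer cells of a type and less RNA per cell cannot be told apart.

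Summed over the 49 large subunit genes, the level was 924.1, 1161 and 1246 CPM in the 3 AML1/ETO libraries and 1515, 1500, 1850, 1509 and 1591 CPM in the 5 controls. The groups did not overlap, and the AML1/ETO mean of 1110 ± 167 CPM (SD, n = 3) was 0.697 of the control mean of 1593 ± 148 CPM (SD, n = 5). Summed over the 29 small subunit genes, it was 481.5, 600.4 and 640.0 CPM in AML1/ETO and 756.2, 779.6, 952.5, 819.8 and 775.6 CPM in control libraries. These did not overlap either, and the ratio of means was 0.703. The large to small ratio was 1.92, 1.93 and 1.95 in AML1/ETO and 2.00, 1.92, 1.94, 1.84 and 2.05 in control libraries, so the groups overlapped in the balance of the 2 subunits. The median log2 fold change was −0.66 for the large subunit, with 10 of 48 tested genes lower and 1 higher, and −0.52 for the small subunit, with 5 of 29 lower and 0 higher.

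**Figure D1:**
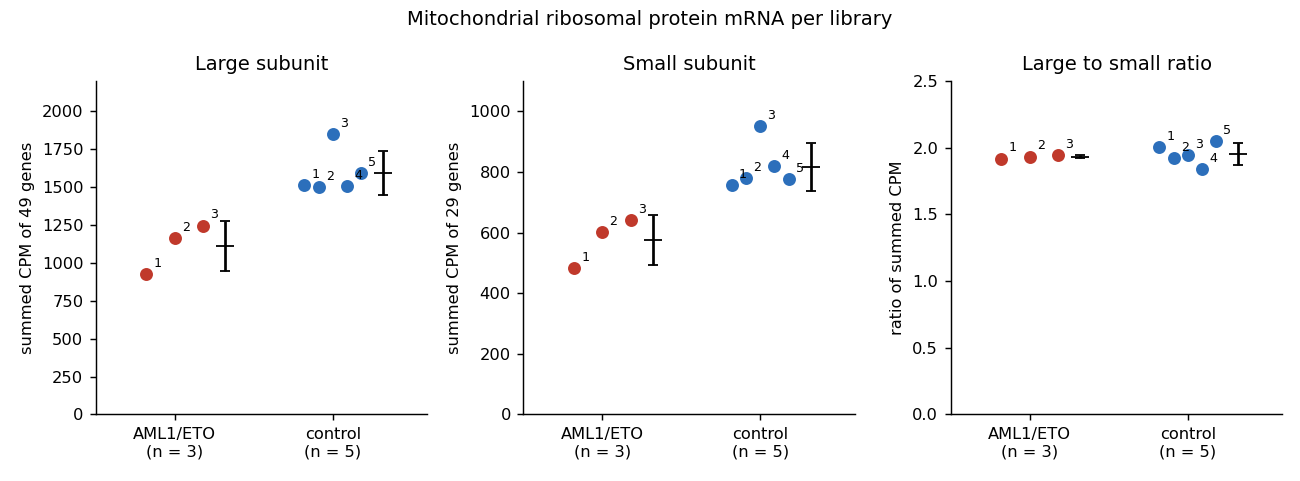
Summed level of the large subunit genes (left) and small subunit genes (middle), in CPM, and their ratio (right), one numbered point per library with mean ± SD beside it. Both sums separate the 3 AML1/ETO libraries (red) from the 5 controls (blue), and the ratio, with subunits placed by symbol, does not.

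The subunit named in a symbol is not always the one the protein sits in. Mrps30 and Mrps18a are large subunit proteins in the known structures (mL65 and mL66 in the uniform nomenclature), and Mrps36 is a component of the oxoglutarate dehydrogenase complex (KGD4). Placed by structure, 51 genes were large and 26 small, and the large to small ratio was 2.14, 2.12 and 2.09 in AML1/ETO against 2.31, 2.20, 2.24, 2.17 and 2.34 in control libraries. With this placing the median log2 fold change was −0.70 for the large and −0.49 for the small subunit, and the difference between them was not tested. The ratio did not overlap between the groups, though the means, 2.12 ± 0.0235 and 2.25 ± 0.0713 (SD), were only 0.941-fold apart. That separation rests on Mrps30 and Mrps18a: with both left out of the sums, AML1/ETO 1 and 2 lie above control 4. The large subunit proteins by structure were classed by their uniform names. The 21 with a mitochondria-specific name (mL) include Mrps18a, which is related to bacterial S18. Their summed level was 368.3 to 432.1 CPM in AML1/ETO and 621.7 to 791.8 CPM in controls, a ratio of means of 0.594. The 30 with a name shared with bacteria (uL or bL) had 587.9 to 843.6 CPM and 889.5 to 1134 CPM, a ratio of 0.751. The ratio of the first class to the second was 0.512 to 0.626 in AML1/ETO and 0.646 to 0.773 in control libraries, without overlap. The second class includes Mrpl24, the only member that rose (52.0, 93.8 and 123.2 CPM in AML1/ETO, 25.6 to 56.5 CPM in controls). The separation rests on Mrpl24: with it left out of the sum, AML1/ETO 1 lies above control 4. In the small subunit the same ratio was 0.530 ± 0.0711 against 0.523 ± 0.0495 (SD), and the groups overlapped.

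**Figure D2:**
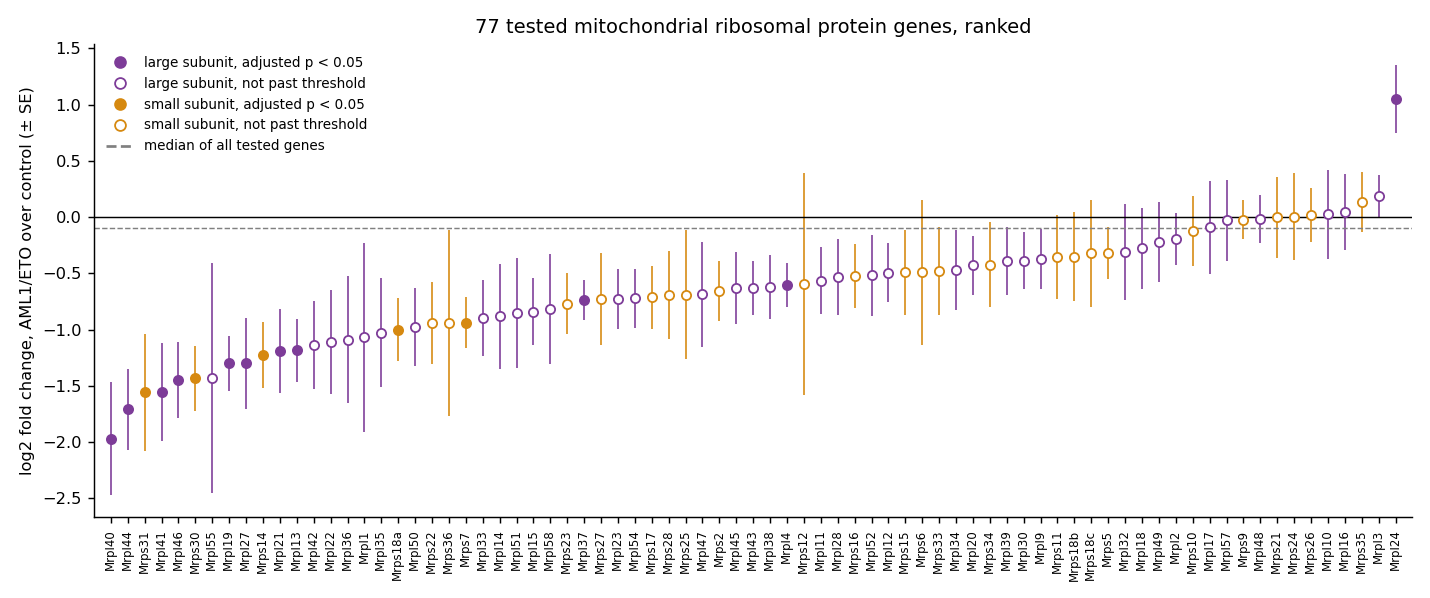
Fitted log2 fold change of AML1/ETO over control, with its standard error, for the 77 tested members in rank order. Colour gives the subunit by symbol, filled points passed an adjusted p of 0.05, and the dashed line is the median of all genes; the members lie mostly below it, with Mrpl24 alone far above 0.

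The promoters of 5 members are shown, each 250 bases before to 50 after an annotated start (RefSeq, GRCm38.p6, 5′ to 3′ in the gene's direction). Mrpl24 was the only member that rose, Mrpl44 and Mrps30 were among the largest falls, and Mrpl27 and Mrps7 carry further motifs of regulators of mitochondrial genes. Capitals mark matches to 1 of 5 motifs, searched on both strands: CCGGAAGT (ETS factors such as GABP), the NRF1 motif (GCGCA and GCGC with any 1 base between them), AAGATGGC (YY1), CACGTG (the E-box of Myc and Max) and TGTGGT (RUNX). No motif contains another. The windows are chr3:87919294-87919593 on the plus strand for Mrpl24, chr1:79775768-79776067 on the plus strand for Mrpl44, chr11:94653541-94653840 on the plus strand for Mrpl27, chr13:118387203-118387502 on the minus strand for Mrps30 and chr11:115603890-115604189 on the plus strand for Mrps7.
Mrpl24: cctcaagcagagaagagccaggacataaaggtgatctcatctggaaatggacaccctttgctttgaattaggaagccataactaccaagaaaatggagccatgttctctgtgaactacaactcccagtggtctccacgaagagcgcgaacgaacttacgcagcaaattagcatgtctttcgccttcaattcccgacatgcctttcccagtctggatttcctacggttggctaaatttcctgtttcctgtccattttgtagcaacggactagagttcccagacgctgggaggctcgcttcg
Mrpl44: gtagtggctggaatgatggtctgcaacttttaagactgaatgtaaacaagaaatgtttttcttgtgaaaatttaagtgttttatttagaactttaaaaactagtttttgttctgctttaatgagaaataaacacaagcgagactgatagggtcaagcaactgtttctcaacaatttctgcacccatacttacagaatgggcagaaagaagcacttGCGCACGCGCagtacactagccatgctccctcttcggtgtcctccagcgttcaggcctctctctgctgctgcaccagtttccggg
Mrpl27: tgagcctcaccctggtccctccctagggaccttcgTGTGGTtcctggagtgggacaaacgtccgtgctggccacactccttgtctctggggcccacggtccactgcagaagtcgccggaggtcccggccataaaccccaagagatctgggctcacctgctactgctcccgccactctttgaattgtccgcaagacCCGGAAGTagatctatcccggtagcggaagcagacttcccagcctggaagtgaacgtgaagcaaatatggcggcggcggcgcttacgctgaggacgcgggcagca
Mrps30: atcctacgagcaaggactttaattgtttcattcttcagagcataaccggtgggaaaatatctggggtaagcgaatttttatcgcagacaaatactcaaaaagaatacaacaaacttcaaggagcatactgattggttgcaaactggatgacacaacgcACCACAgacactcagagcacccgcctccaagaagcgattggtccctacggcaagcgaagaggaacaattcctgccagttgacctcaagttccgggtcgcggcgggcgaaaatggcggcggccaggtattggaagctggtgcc
Mrps7: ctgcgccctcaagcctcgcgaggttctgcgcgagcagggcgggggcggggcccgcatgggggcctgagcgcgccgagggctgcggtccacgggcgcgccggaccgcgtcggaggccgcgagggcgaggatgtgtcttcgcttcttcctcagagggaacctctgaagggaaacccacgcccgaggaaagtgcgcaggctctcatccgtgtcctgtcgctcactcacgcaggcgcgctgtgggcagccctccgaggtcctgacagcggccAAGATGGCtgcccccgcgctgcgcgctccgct
The window of Mrpl24 holds none of the 5 motifs. Nor do the windows of Mrpl40, Mrps31, Mrpl41 and Mrpl46, which had lower log2 fold changes than Mrps30 and are not shown. The NRF1 match of Mrpl44 begins 35 bases before the start and the ETS match of Mrpl27 55 bases before it, and Mrpl27 also has a RUNX match 215 bases before it. Mrps30 has a RUNX match on the reverse strand 92 bases before its start, and the YY1 match of Mrps7 begins 18 bases after.

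Promoter windows were found for 69 of the 78 members, 75 windows in all; Mrpl4, Mrpl13, Mrpl15, Mrpl19, Mrpl38, Mrpl54, Mrps28, Mrps34 and Mrps35 had none. The ETS motif was in 16% of member windows against 5.1% of windows of protein-coding genes, the NRF1 motif in 17.3% against 6.4% and the YY1 motif in 16% against 3.1%. At least 1 of these 3 was in 45.3% of member windows, against 13.5% of protein-coding windows and 10.4% of all 32851 windows. The windows compared with were not limited to genes that passed the filter on low counts, as 77 of the 78 members did. The share over such genes alone was not computed. The E-box was in 9.3% against 7.8%, but 3 of its 7 member windows belong to Mrpl2, and counted by gene it was in 7.2% of members against 8.9% of protein-coding genes. The RUNX motif was in 12% against 15% of protein-coding windows. Among the 12 windows of members that fell, 41.7% held an ETS, NRF1 or YY1 motif, and among the 61 of members without a call 47.5% did. A match is a string of letters, not a measured binding site.

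Among large subunit genes with a bacterial counterpart, Mrpl19 (bL19m; chr6:81957851-81965958, minus strand, GRCm38) had the smallest adjusted p of all members. Its level was 16.4, 13.7 and 17.9 CPM in AML1/ETO and 39.8, 35.4, 44.9, 34.0 and 43.1 CPM in control libraries. Every AML1/ETO library was below every control, and the fall was 2.46-fold (log2 fold change −1.30 ± 0.24 SE, adjusted p = 0.0022, edgeR). Of its exonic bases, 36.0% lie opposite an exon of Gcfc2, which rose (15.3 CPM in control, 42.2 CPM in AML1/ETO), though not past the threshold without AML1/ETO 3. Without the strand setting of the counting the reads of Mrpl19 and Gcfc2 cannot be told apart there. Mrpl13 (uL13m; chr15:55534094-55557748, minus strand) was at 12.95, 18.9 and 26.4 CPM against 32.9, 42.8, 49.9, 47.7 and 47.2 CPM. It fell 2.27-fold without overlap (log2 −1.18 ± 0.28, adjusted p = 0.0092, edgeR). Mrpl27 (bL27m; chr11:94653767-94660089, plus strand), whose bacterial relative reaches into the peptidyl transferase centre, was at 5.75, 17.5 and 8.90 CPM against 24.1, 24.8, 35.1, 29.5 and 18.7 CPM. Its groups came close to touching, and the fall (log2 −1.30 ± 0.40, adjusted p = 0.033, edgeR) kept its call in 9 of 17 alternative settings. It missed the threshold without AML1/ETO 1 or 3 or without control 2, 3 or 4 (adjusted p of 0.066 to 0.095). Mrpl4 (uL4m), which lines the exit tunnel, was at 48.5, 40.4 and 50.5 CPM against 62.9, 88.4, 73.1, 60.0 and 68.7 CPM, a small fall (log2 −0.61 ± 0.20, adjusted p = 0.040, edgeR) that kept its call in 3 of 17 and in none of the fits without 1 library. Mrpl21 (bL21m) also fell (log2 −1.19 ± 0.37, adjusted p = 0.034, edgeR), but its AML1/ETO 3 library, at 26.2 CPM, lay above control 2, at 25.3 CPM. It kept its call in 8 of 17 settings, and among the fits without 1 library only without AML1/ETO 3 or control 2.

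The proteins found only in mitochondrial ribosomes gave the largest falls of the large subunit. Mrpl44 (mL44; chr1:79776018-79781445, plus strand), which has an RNase III-like fold, was at 11.96, 12.9 and 8.24 CPM in AML1/ETO and 24.3, 28.7, 61.6, 34.4 and 31.7 CPM in control libraries. Control 3 stood far above the other controls, yet the lowest control was still well above the highest AML1/ETO library, and the fall was 3.27-fold (log2 −1.71 ± 0.36, adjusted p = 0.0047, edgeR). Mrpl40 (mL40; chr16:18872018-18876862, minus strand), whose human counterpart lies in the region deleted in DiGeorge syndrome, was at 2.20, 8.997 and 4.84 CPM against 23.4, 14.5, 28.04, 15.02 and 24.1 CPM. Its log2 fold change, −1.97 ± 0.50, was the lowest of the members (adjusted p = 0.014, edgeR). Mrpl41 (mL41), also reported to bind Bcl-2, was at 3.41, 5.37 and 7.26 CPM against 16.5, 12.8, 19.7, 16.2 and 13.4 CPM (log2 −1.56 ± 0.44). It fell at an adjusted p of 0.021 (edgeR) and missed the threshold without control 3. Mrpl46 (mL46; chr7:78775236-78783531, minus strand) was at 7.04, 12.3 and 15.8 CPM against 43.9, 25.3, 28.98, 30.6 and 31.4 CPM and fell 2.74-fold without overlap (adjusted p = 0.0080, edgeR). Mrpl37 (mL37) was the most even of the members that fell: 42.3, 45.9 and 35.9 CPM against 68.1, 70.0, 72.5, 62.4 and 71.8 CPM, a 1.67-fold fall (log2 −0.74 ± 0.18, adjusted p = 0.010, edgeR).

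Mrps30 (chr13:118378381-118387252, minus strand), a small subunit gene by symbol and a large subunit protein (mL65) by structure, was at 13.5, 10.8 and 13.02 CPM against 21.7, 31.8, 35.3, 40.99 and 38.03 CPM. Its 3 AML1/ETO libraries were tightly grouped, below every control, and the fall was 2.70-fold (log2 −1.43 ± 0.29, adjusted p = 0.0038, edgeR). The 3 paralogues related to bacterial S18 differed in their values. Mrps18a (mL66), which sits in the large subunit, was at 18.6, 15.6 and 16.7 CPM against 40.3, 33.1, 40.3, 34.1 and 22.03 CPM and fell 2.00-fold (adjusted p = 0.020, edgeR). It missed the threshold without AML1/ETO 2, AML1/ETO 3 or control 3. Mrps18b (mS40) was at 12.95, 24.4 and 10.01 CPM against 13.2, 22.6, 23.3, 14.2 and 27.5 CPM, and Mrps18c (bS18m) at 9.01, 3.94 and 12.1 CPM against 12.1, 9.27, 10.2, 9.14 and 11.5 CPM. Both overlapped between groups and had adjusted p-values of 0.58 and 0.70 (edgeR); the difference between the paralogues was not tested.

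In the small subunit proper, Mrps14 (uS14m; chr1:160195215-160202170, plus strand), a protein of the head of the subunit, was at 9.77, 16.5 and 12.9 CPM against 24.5, 25.6, 32.9, 34.5 and 35.1 CPM. The groups did not overlap, and it fell 2.34-fold (log2 −1.22 ± 0.29, adjusted p = 0.0098, edgeR). Mrps7 (uS7m; chr11:115603925-115608036, plus strand), whose bacterial relative starts the assembly of the head, was at 45.0, 29.1 and 30.3 CPM against 70.2, 64.9, 80.5, 65.6 and 51.9 CPM. It too separated the groups, with a 1.92-fold fall (log2 −0.94 ± 0.23, adjusted p = 0.010, edgeR). Mrps31 (mS31) was at 2.20, 9.31 and 15.2 CPM against 27.96, 19.0, 36.02, 26.2 and 22.3 CPM and had the lowest log2 fold change of the small subunit genes (−1.56 ± 0.52, adjusted p = 0.047, edgeR). That call was kept in 6 of 17 settings and was lost without AML1/ETO 2 and without any 1 of the 5 controls. Mrps9 (uS9m), by contrast, was at 46.8, 59.1 and 54.4 CPM against 52.4, 56.0, 53.0, 53.0 and 57.1 CPM. Its log2 fold change was −0.02 ± 0.18, and with Mrps24, Mrps26, Mrps21, Mrpl48 and Mrpl57 it was among the members whose fitted change lay within 0.03 of 0 on the log2 scale. Mrps21, Mrps31 and Mrps9 were named after their values were seen, as were Mrpl21, Mrpl48, Mrpl57, Mrps24 and Mrps26.

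**Figure D3:**
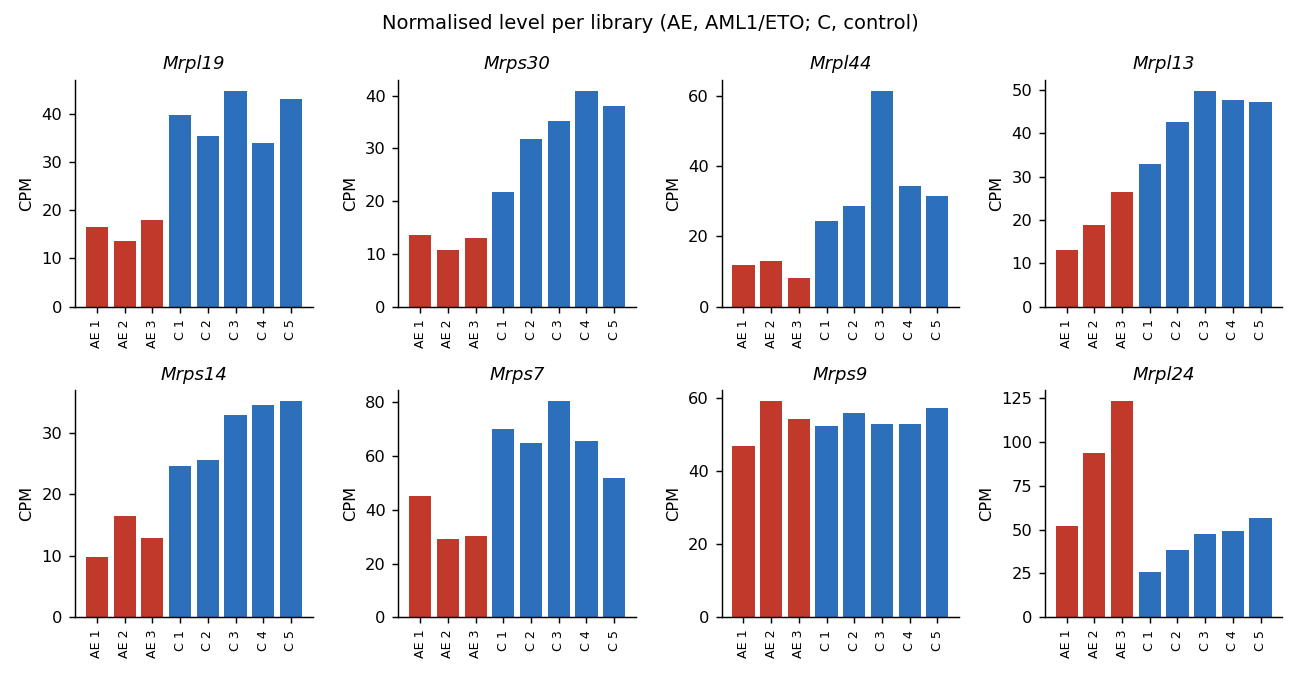
Level in CPM of 8 members in each of the 3 AML1/ETO libraries (AE, red) and 5 controls (C, blue). In Mrpl19, Mrps30, Mrpl44, Mrpl13, Mrps14 and Mrps7 every AML1/ETO library lies below every control, Mrps9 is level across all 8, and Mrpl24 is higher in AML1/ETO 2 and 3 than in any control.

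Mrpl24 (uL24m; chr3:87919506-87923672, plus strand), whose bacterial relative begins the assembly of the large subunit, was the only member that rose. Its level was 52.0, 93.8 and 123.2 CPM in AML1/ETO and 25.6, 38.4, 47.4, 48.96 and 56.5 CPM in control libraries. AML1/ETO 1 lay below control 5, so the groups overlapped, and the rise was 2.07-fold (log2 1.05 ± 0.30, adjusted p = 0.023, edgeR). It missed the threshold without AML1/ETO 2 (adjusted p = 0.055) and without AML1/ETO 3 (adjusted p = 0.13). Of its exonic bases, 26.3% lie opposite exons of Rrnad1, which had 480 to 771 reads in AML1/ETO and 626 to 798 in control libraries. Scaled to library size, the mean of Rrnad1 was 43.7 CPM in AML1/ETO and 42.0 CPM in controls (adjusted p = 0.88, edgeR).

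Per kilobase of exon, the members with the highest level over all 8 libraries were Mrpl54 (mL54) at 47.9 CPM per kilobase, Mrpl34 (bL34m) at 44.2 and Mrpl2 (uL2m), which in bacteria helps to join the subunits, at 43.7. Mrpl54 was at 32.7, 19.6 and 31.9 CPM against 34.9, 50.9, 54.9, 39.4 and 51.7 CPM, without overlap but short of the threshold (adjusted p = 0.061, edgeR), which it passed without control 1. Mrpl34 and Mrpl2 overlapped between the groups. By CPM, Mrpl3 (uL3m), a protein close to the peptidyl transferase centre, was the highest member: 69.7, 71.2 and 70.9 CPM against 49.8, 69.9, 65.3, 71.6 and 53.3 CPM, with an adjusted p of 0.52 (edgeR). Mrpl12 (bL12m), the stalk protein that is also reported to bind the mitochondrial RNA polymerase, was at 24.8, 23.1 and 23.9 CPM against 44.9, 31.9, 37.6, 29.8 and 24.3 CPM (log2 −0.49 ± 0.26, adjusted p = 0.19, edgeR). Mrps36 ranged from 0.916 to 14.1 CPM in AML1/ETO and from 3.52 to 18.8 CPM in controls (log2 −0.94, adjusted p = 0.46, edgeR). Without AML1/ETO 2 it passed the threshold (log2 −2.73, adjusted p = 0.036, edgeR). In AML1/ETO 3 Mrps36 had 14 reads, while its pseudogenes Mrps36-ps1 and Mrps36-ps2 had 62 and 31. Whether reads of Mrps36 were counted to its pseudogenes was not tested. Mrpl53 (mL53) was the member that the filter removed: it had 0 reads in all 8 libraries, which allows up to 3 reads per library by counting error alone, and 87.97% of its exonic bases are shared on the same strand with Gm42688.

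The spread of the members depended on the library and the level. AML1/ETO 1 was the lowest library for 36 of 77 members, AML1/ETO 2 for 16, AML1/ETO 3 for 14 and a control for the other 11, and control 3 was the highest for 33. The median coefficient of variation was 37.7% over the AML1/ETO libraries and 22.2% over the controls. Members with a mean under 20 CPM had a median log2 fold change of −0.82, those of 20 to 40 CPM −0.59 and those of 40 CPM or more −0.35; all genes of these levels had −0.10, −0.06 and −0.10. Mrps12 (uS12m), a protein of the decoding centre, had 0 reads in AML1/ETO 1 and 21.7 CPM in AML1/ETO 3, and Mrpl55 (bL31m) had 0 in AML1/ETO 3. Of the 78 members, 33 share exonic bases with another gene, and 17 share 10% or more; without these 17, 13 members fell and 0 rose.

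**Figure D4:**
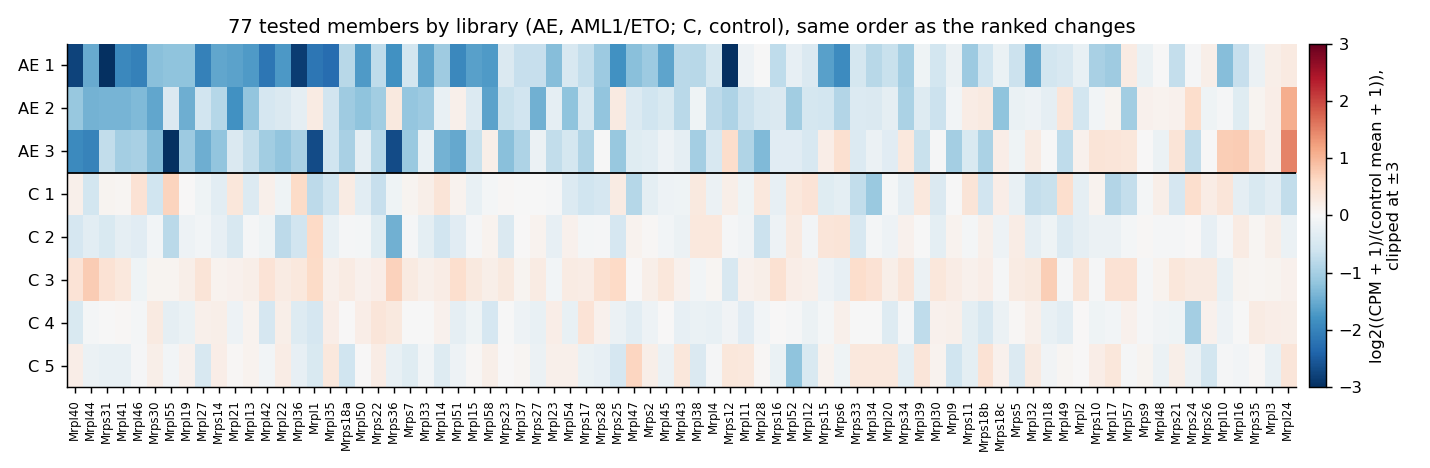
Level of each of the 77 tested members in each library, as log2 of (CPM + 1) over (control mean + 1), with columns in the order of the ranked changes and colours clipped at the ends of the scale. Blue, below the control mean, fills most of the 3 AML1/ETO rows (AE), darkest in AML1/ETO 1, and control 3 is the reddest row.

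As a set, cytosolic ribosomal proteins lay close to 0. Of 79 tested, 1 rose (Rps9) and 2 fell (Rps27l and Rpl15), their median log2 fold change was 0.05, and their summed level was 54514 to 73151 CPM in AML1/ETO and 55473 to 72073 CPM in control libraries. With library totals in place of TMM factors their median was −0.10, with 0 higher and 8 lower. Without AML1/ETO 3 it was −0.15, with 0 higher and 1 lower, so the sign of the median and the rise of Rps9 rest on that library; Rpl15 missed the threshold in 14 of 17 settings. The mitochondrial set as a percentage of the cytosolic set was 2.43, 3.23 and 2.58 in AML1/ETO and 4.10, 3.82, 3.89, 3.86 and 4.09 in controls, without overlap.

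Other genes of mitochondrial translation, from lists of known roles, had few calls, in both directions. Of the assembly factors 10% fell and 3.33% rose, and of the translation factors 7.14% fell and 7.14% rose. These shares are below those of all genes, 14.2% and 11.6%. The 5 mitochondrial ribosomal proteins under other symbols (Dap3, Ptcd3, Chchd1, Aurkaip1 and Gadd45gip1) all had a log2 fold change below 0, from −0.71 to −0.20, and 0 of them passed the threshold by edgeR. Of 30 assembly factors, 3 fell: Ddx28, an RNA helicase of large subunit assembly (log2 −1.52 ± 0.33), C1qbp, an RNA-binding chaperone of the matrix (−1.14 ± 0.27), and Fastkd2 (−0.95 ± 0.32), whose call was lost without any 1 of the 3 AML1/ETO libraries or of controls 2 to 5. The small subunit maturation factor Rbfa rose, from 56.7 to 89.5 CPM in controls to 108.1, 117.6 and 140.6 CPM in AML1/ETO, though not past the threshold without AML1/ETO 3. Of 14 translation factors, Mtfmt, which formylates the initiator methionine, rose (39.1, 48.2 and 36.9 CPM against 11.2 to 19.7 CPM; adjusted p = 0.0024, edgeR), and the elongation factor Gfm1 fell (adjusted p = 0.040, edgeR), a call lost without AML1/ETO 1 or 3 or any 1 of controls 1 to 4. Their median log2 fold change was 0.30 (0.10 without AML1/ETO 2, 0.20 without AML1/ETO 3 and 0.48 without AML1/ETO 1 or control 3). That of the assembly factors was −0.17, from −0.29 without AML1/ETO 3 to −0.07 without control 2.

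Of 18 tested genes that keep and transcribe mitochondrial DNA, 3 were higher and 3 lower (16.7% each), near the shares of all genes (11.6% and 14.2%). Their median was −0.10. Without AML1/ETO 2 the count lower was 5, and without AML1/ETO 3 the median was −0.39. Tfam, which packages the DNA and opens its promoters, fell from 68.4 to 88.9 CPM in controls to 31.4, 46.2 and 19.4 CPM in AML1/ETO (log2 −1.23 ± 0.27, adjusted p = 0.0054, edgeR), and the promoter factor Tfb2m fell too (log2 −1.05 ± 0.27). Polrmt, the RNA polymerase that works with both, rose (log2 1.21 ± 0.29), as did Fastk and, except without AML1/ETO 3, the tRNA methyltransferase subunit Trmt10c. Hsd17b10, a partner of Trmt10c in tRNA processing, fell (log2 −0.92 ± 0.31), but not without AML1/ETO 1 or any 1 of the 5 controls. Of 12 tested mRNAs of mitochondrial DNA, mt-Nd2, mt-Nd5 and mt-Nd6, subunits of respiratory complex I, fell and 0 rose, with a median of −0.55; mt-Nd2 was at 269.8, 326.4 and 405.6 CPM against 600.7 to 1074 CPM (log2 −1.29 ± 0.21, adjusted p = 8.27e-04, edgeR). The share that fell was 25%, against 14.2% of all genes. The count that fell was 5 without AML1/ETO 3 and 6 with library totals. The call of mt-Nd6 was lost without AML1/ETO 1 or control 3, 4 or 5. The summed level of these mRNAs overlapped, 9545 ± 2679 against 12468 ± 2493 CPM (SD), and neither mitochondrial rRNA passed the threshold, though 1 of them rose without AML1/ETO 2. Values of mt-Atp6, mt-Atp8, mt-Co2, mt-Co3, mt-Nd3 and mt-Nd4l, all at most 60.0 CPM, are uncertain, since near-identical nuclear copies can take their reads.

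**Figure D5:**
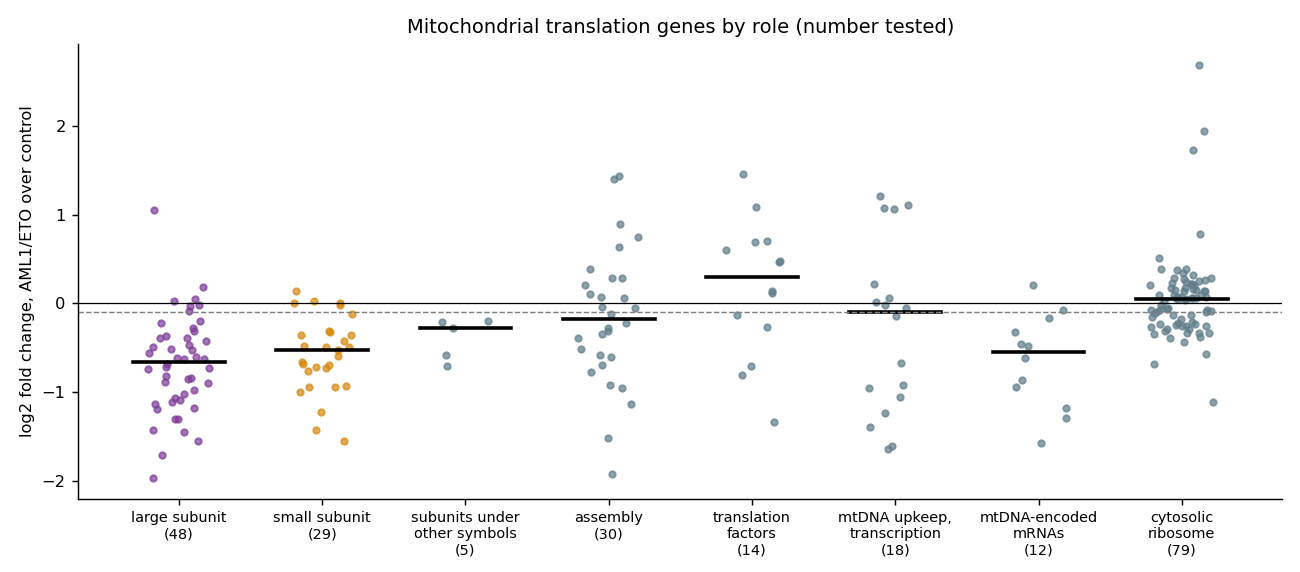
Log2 fold change of AML1/ETO over control for the tested genes of each role, one point per gene with a bar at the median; the dashed line is the median of all genes. The medians of the large (−0.66) and small subunit (−0.52) lie below that of the cytosolic ribosomal proteins (0.05), and assembly and translation factors spread to both sides.

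Among 11 regulators of mitochondrial genes, 3 fell and 2 rose (27.3% and 18.2%, against 14.2% and 11.6% of all genes). Gabpa and Gabpb1, the subunits of the ETS factor GABP, fell (log2 −0.95 ± 0.20 and −1.04 ± 0.23; adjusted p = 0.0053 and 0.0066, edgeR), while the coactivator Ppargc1b and the nuclear receptor Esrra rose (log2 2.34 ± 0.51 and 1.72 ± 0.43), Esrra not without AML1/ETO 3. Mycn, at 8.86 to 19.9 CPM in controls, had 0 reads in all 3 AML1/ETO libraries; Myc was at 61.1, 86.1 and 116.5 CPM against 31.6 to 77.3 CPM (adjusted p = 0.098, edgeR) and passed the threshold without AML1/ETO 1 or control 3. Nrf1, Yy1 and Max did not pass the threshold.

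Markers of cell division and of other cell types also differed between the groups, in both directions. All 6 cycling markers fell, from a summed 1488 to 1699 CPM in controls to 429.0, 712.5 and 295.9 CPM in AML1/ETO; Mki67, for example, was at 520.9 to 749.8 CPM against 262.9, 236.4 and 124.0 CPM. All 7 tested of 10 mast cell markers rose, from a summed 426.3 to 536.5 CPM to 4200, 4937 and 8411 CPM, led by the protease gene Cpa3 and including Kit, which is also an LSK marker; Tpsb2, Tpsab1 and Mcpt4 were at 0 in every control and above 0 in AML1/ETO 1. The summed levels of the neutrophil, monocyte and macrophage, B cell, and T and NK cell lists were low in AML1/ETO. Of 7 tested neutrophil markers, 3 fell (summed 2.20, 67.0 and 0.0654 against 123.9 to 305.4 CPM), and all 7 fell without AML1/ETO 2. With all 8 libraries, 4 of 6 monocyte and macrophage markers fell (38.7 to 56.9 against 160.5 to 333.2 CPM), 4 of 5 B cell markers fell (3.86 to 15.8 against 58.5 to 87.5 CPM), and the 1 tested T and NK cell marker, Nkg7, fell while Cd3d, Cd3e and Cd3g were at 0 in all 8 libraries. Of 6 tested erythroid markers 1 rose, with sums of 15.3 to 71.1 against 2.98 to 41.5 CPM. The part of these cells, of cell division and of sex in the ribosomal protein values was not tested.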

How the data were processed

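RNA-seq of sorted LSK cells gave 8 libraries, in 2 groups given by genotype (3 AML1/ETO, 5 control). The deposited values are raw read counts per Ensembl gene, made by the authors with HISAT2 2.0.5 and featureCounts 1.5.0-p3 on mm10, per the submitters' processing notes; the labels' protocols name RNAiso Plus for extraction and a NEBNext Ultra kit for the libraries. No source used here gives the annotation release or strand setting, which decide how reads of overlapping genes were assigned. No sample column was left unused (0).

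Symbols, exons and coordinates came from GENCODE M21 (GRCm38), which matched all 78 members. Counts were filtered with filterByExpr, scaled by TMM and tested with edgeR 4.0.16 in R 4.3.3 (quasi-likelihood, all 8 libraries, no covariates, two-sided, Benjamini-Hochberg over 15009 genes, threshold 0.05). The test was checked on simulated data. CPM use TMM-scaled totals, and standard errors come from the F statistic. Alternatives were DESeq2 1.42.0, limma 3.58.1 (voom), other scalings, filters, left-out libraries and a replicate block. Motifs were searched with Python 3.11.15.

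The members and lists were chosen with earlier results of these data known. Members named were the Mrps18 paralogues, Mrps30, Mrps36 and Mrpl12; up to 12 falls and 12 rises without overlap by smallest adjusted p; the 3 highest by CPM and per kilobase; and members removed by the filter or at 0 in a group. Of each other list, 4 genes or fewer were taken by smallest p, and others named there, with the members said to be, were chosen after their values were seen. Cytosolic ribosomal proteins were protein-coding Rpl and Rps symbols without kinases and binding proteins. List genes that are no protein-coding gene, the immunoglobulin and T cell receptor constant genes, and Gtpbp5, Mtrfr and Prorp, which had no row, were left out.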

Additional observations from a re-analysis of the deposited data

Results flagged for a closer look

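Over 26 values tested for a control library far from the other 4, 2 stood out, and chance alone gives about 1 in 20 such groups. In Mrpl44, control 3 was at 61.6 CPM while the other controls were at 24.3 to 34.4 CPM. In the summed level of the large subunit, control 3 was at 1850 CPM while the other controls were at 1500 to 1591 CPM. Without control 3, 9 of 77 members fell in place of 15, beside 1631 of 14538 genes, and Mrpl44 kept its call.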

How the results depend on the processing

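The count of 15 members that fell was 8 with limma-voom and 26 with library totals in place of TMM factors. It was 9 to 19 when 1 library was left out, lowest without control 3 and highest without AML1/ETO 2. Over all genes tested, 1915 of 15009 fell with limma-voom, 1631 of 14538 without control 3 and 2088 of 16241 without AML1/ETO 2. The share of members that fell was thus below that of all genes with limma-voom and near it without control 3. Library totals moved the median of all genes from −0.09 to −0.24, with 1407 genes higher and 2712 lower in place of 1734 and 2128; relative to that median the large subunit stood at −0.56 under both scalings and the small subunit at −0.43 and −0.42. The count of 1 that rose was 0 to 1 over left-out libraries (0 without AML1/ETO 2 or 3) and 0 with members that share exons left out, an alternative added after the data were seen. The log2 difference in the large to small ratio was −0.0131 by symbol and −0.0876 by structure. The medians stayed below 0 in all 20 alternatives, from −0.80 to −0.46 for the large and from −0.67 to −0.35 for the small subunit; without AML1/ETO 1 the small subunit stood −0.22 below the median of all genes in place of −0.43. Cytosolic ribosomal proteins changed the sign of their median from 0.05 to −0.10 with library totals, to −0.15 without AML1/ETO 3 and to −0.03 with the replicate number as a block. Mrpl19, Mrpl13 and Mrps7 passed the threshold in 17 of 17 alternatives. With the replicate number as a block, 3 members fell and 951 genes rose and 1098 fell overall; the numbers showed no pairing, with correlations of deviations of 0.039, −0.039 and 0.027 and 1 of 3 AML1/ETO libraries closest to its own number. The causes were not tested. At a median of 170.5 to 327 reads per member in AML1/ETO, the spread between libraries exceeds counting error.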

Other observations

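Some mitochondrial ribosomal protein genes lie head to head with a neighbour transcribed the other way. Of the 78 members, 33 have a protein-coding gene on the opposite strand whose start lies within 1000 bases of their own. The share of all genes with such a neighbour was not computed. The 31 tested partners had a median log2 fold change of −0.23, and 18 lay below 0. Over all genes tested the median was −0.09, 53.8% lay below 0, 14.2% fell and 11.6% rose. Of the members that fell, 1 had a partner that also fell (Mrpl13 with Mtbp, whose call was lost without AML1/ETO 2 or control 2), 2 had a partner that rose, 6 had a partner without a call and 1 had a partner that was not tested. Wdfy1, whose first exon overlaps that of Mrpl44, rose from 45.9 to 83.9 CPM (log2 0.87, adjusted p = 0.019, edgeR; not without AML1/ETO 1 or 3), and Pnpla7, 935 bases from Mrpl41, rose from 75.1 to 221 CPM (log2 1.56, adjusted p = 2.74e-04, edgeR). Mrpl46 and Mrps11 are partners of each other: Mrpl46 fell (log2 −1.45) and Mrps11 had a log2 fold change of −0.36 with an adjusted p of 0.55 (edgeR). Partners of 5 members without a call fell, among them Tcp1 beside Mrpl18, a chaperonin subunit (log2 −0.92), and Psma2 beside Mrpl32, a proteasome subunit (log2 −0.82). The members and their partners were set side by side after their values were seen.

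The 5 pseudogenes left out by symbol had at most 62 reads in a library. Mrps36-ps1 had 62 in AML1/ETO 3 and 42 in control 5, and Mrps36-ps2 had 31 in AML1/ETO 3 and 54 in control 1. Mrpl48-ps had 59 in AML1/ETO 1, and Mrps36-ps3 had 0 in all 8 libraries. These counts are not small beside Mrps36 itself, which had 14 reads in AML1/ETO 3.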
